A study of Mus musculus with 3 samples.

Results

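The ErbB family of receptor tyrosine kinases and its EGF-like ligands were described at the level of mRNA in mouse diffuse-type gastric cancers. The group comprised 10 genes, chosen by symbol from the gene names printed in the array files: 3 receptors (Egfr, Erbb2 and Erbb3) and 7 ligands (Areg, Ereg, Hbegf, Tgfa, Btc, Egf and Nrg1). All 12 probes of these genes were taken, on 48 spots per array, and all 10 genes were among the 19434 genes tested.

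The tumour RNA came from 3 primary diffuse-type gastric cancers, taken at 12 months from mice of the genotype Atp4b-Cre+;Cdh1loxP/loxP;Trp53loxP/loxP. It was set against 1 pool of 5 normal gastric mucosae taken at the same age from Atp4b-Cre-;Cdh1loxP/loxP;Trp53loxP/loxP mice, so both groups carried the floxed alleles and the pool lacked the recombinase. Each tumour was labelled in red (Cy5) and hybridised to its own 2-colour Agilent array, and the same pool was labelled in green (Cy3) on all 3 arrays, with no dye swap. The labels call the tumours biological replicates. The comparison asked how tumours that arose after deletion of the adhesion gene Cdh1 and the tumour suppressor gene Trp53 differed from normal mucosa. Atp4b encodes a subunit of the proton pump, and its promoter drives Cre in parietal cells, the acid-secreting cells of the gastric gland. Stroma had been stripped from the mucosae by mechanical means in 30 mM EDTA, and the labels state no such step for the tumours, so stroma and tumour state cannot be told apart. Since the pool is 1 sample, the spread among normal mice was not measured.

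The 4 mammalian ErbB receptors pair with one another when a ligand binds, and the paired kinases phosphorylate tails that recruit adaptors of the Ras to ERK and PI3 kinase pathways. EGF, TGF-alpha and amphiregulin bind EGFR, whereas HB-EGF, betacellulin and epiregulin bind both EGFR and ErbB4, and neuregulin 1 binds ErbB3 and ErbB4. ErbB2 binds no ligand of its own, ErbB3 has a weak kinase, and both act mainly in pairs. The ligands are made as membrane proteins and are released by metalloproteases, and in the stomach EGFR ligands take part in mucosal repair and restrain acid secretion.

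Each array held 43020 gene spots, of which 64.0 to 66.8% in red and 52.5 to 54.2% in green were well above background, and no gene spot was saturated. Ratios are given as log2 of tumour over pool, and signals are log2 intensities after normalisation within and between arrays. Signals of different probes are not comparable with each other. The lowest signals well above background averaged 5.62 in red (tumours) and 6.10 in green (pool). A gene was called when its limma adjusted p was under 0.05 and its fitted difference at least 2-fold. Cdh1 was lower in the tumours at -4.24 ± 0.85 (SD, n = 3; adjusted p = 0.00186), as was Atp4b at -6.83 ± 0.14 (adjusted p = 0.000235), while Trp53 had -0.21 ± 0.15 (adjusted p = 0.161). The sources used here do not give the exons flanked by loxP, and the Cdh1 and Trp53 probes could not be placed inside or outside the deleted parts.

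Markers of several cell types differed along with these values. All 7 parietal cell markers were called lower, with a summed signal of 5102 to 8950 in tumours against 557400 to 591400 in the pool, and 1 of them, Slc26a7, was not well above background in any tumour. These 7 included Atp4b, given above, and Cblif (-7.89), which was also listed as a chief cell marker. Simple gastric epithelium markers had 5 of 7 called lower and 1 higher, with sums of 152200 to 267900 in tumours and 731600 to 1013000 in the pool. Those called lower were Cdh1, the deleted gene given above, Tff1 (-3.52), also listed for surface mucous cells, Cldn18 (-1.96), Krt8 (-1.56) and Krt19 (-1.27). Epcam was called higher (1.20 ± 0.22, SD, n = 3), and Krt18 was not called (-0.13). Fibroblast markers had 8 of 9 called higher (48000 to 157500 in tumours, 16340 to 18040 in the pool), and macrophage markers 5 of 6 (15980 to 17880 in tumours, 2872 to 2937 in the pool). Neutrophil markers had 3 of 5 called higher (45690 to 210900 in tumours, 11830 to 12620 in the pool), and Ly6g was not well above background in the pool. In bulk tissue, fewer cells of a type and less RNA per cell cannot be told apart, and the part of these cell types in the results below was not tested.

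Egfr was read by 3 probes whose ratios differed, and the probe letters are given because the call depends on which one is read. The first 30 bases of each 60-base probe follow, 5′ to 3′ as in the array files.
A_52_P106259: gttgcaagccactctaactgtagcaatgaa
A_55_P1956862: gaagtgtggccatctgggtacgttcaatgg
A_55_P1956863: tctggaagtatgcagatgccaataatgtct
By the files' mm9 coordinates, all 60 bases of A_52_P106259 lie on the plus strand at chr11:16813815-16813874, those of A_55_P1956862 at chr11:16787172-16787231 and those of A_55_P1956863 at chr11:16783556-16783615. The first probe is annotated to transcript variant 1 and the other two to transcript variant 2, and it lies 26.6 and 30.3 kb from them. Exon and UTR placement was not assigned. The variant names therefore follow the annotation only, and whether a probe reads both variants was not determined.

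Of the 10 members, 3 were called higher in the tumours (Egfr, Hbegf and Ereg) and 1 lower (Egf). Over all genes tested, 9.33% were called higher and 9.68% lower, so the 1 of 10 called lower stands near that background. The 3 of 10 called higher is a larger share, but the list was not tested. Its members were chosen with earlier results of these data known. Ereg was kept for testing only through its tumour signals and Egf only through its pool signals, and Egfr was called at its brightest probe only. The remaining 6 members were not called. The median log2 ratio of the 10 members was 0.33, against 0.05 over all genes. The ratio was positive in all tumours for 3 members, negative in all for 2 and of mixed sign for 5, while 24.98% of all genes had mixed sign.

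**Figure D1:**
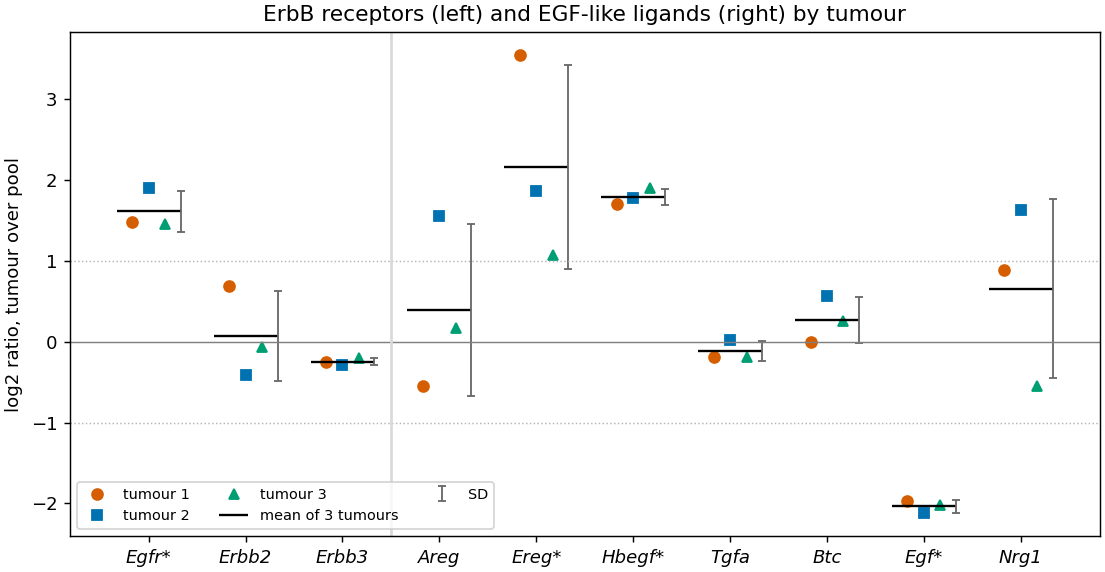
Log2 ratio of tumour over pool for each of the 10 members, with 1 point per tumour, the mean as a bar and the SD beside it. Asterisks mark the 4 called genes, and dotted lines mark a 2-fold difference; Hbegf and Egf have tightly grouped points, whereas Ereg, Areg and Nrg1 spread over more than 2 log2 units.

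Egfr encodes the receptor for EGF and most of the ligands listed here. At its brightest probe, A_52_P106259, the signals were 10.55, 10.98 and 10.56 in tumours 1, 2 and 3, against 9.06, 9.08 and 9.11 for the pool on the same arrays. Every tumour lay above every reading of the pool. The ratios were 1.49, 1.90 and 1.45, a mean of 1.62 ± 0.25 (SD, n = 3), or 3.06-fold (adjusted p = 0.00185). This probe was spotted 10 times per array, and the SD between its spots was 0.058, 0.065 and 0.044, well below the distance between tumour 2 and the others.

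The Egfr probes annotated to variant 2 gave smaller ratios and were not called. A_55_P1956862 had 0.43, 0.75 and 0.77 in tumours 1, 2 and 3, a mean of 0.65 ± 0.19 (SD, n = 3; adjusted p over probes = 0.0121). A_55_P1956863 had 0.44, 0.68 and 0.47, a mean of 0.53 ± 0.13 (SD, n = 3; adjusted p over probes = 0.0140). All 3 probes were thus above 0 in every tumour, but only A_52_P106259 passed 2-fold. The difference between probes was not tested as such, and it is not a measurement of the transcript variants. With its probes summarised by their median Egfr stood at 0.65 and lost its call. With median centring (each array's median over gene spots set to 0, with no loess) A_52_P106259 stood at 2.76.

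**Figure D2:**
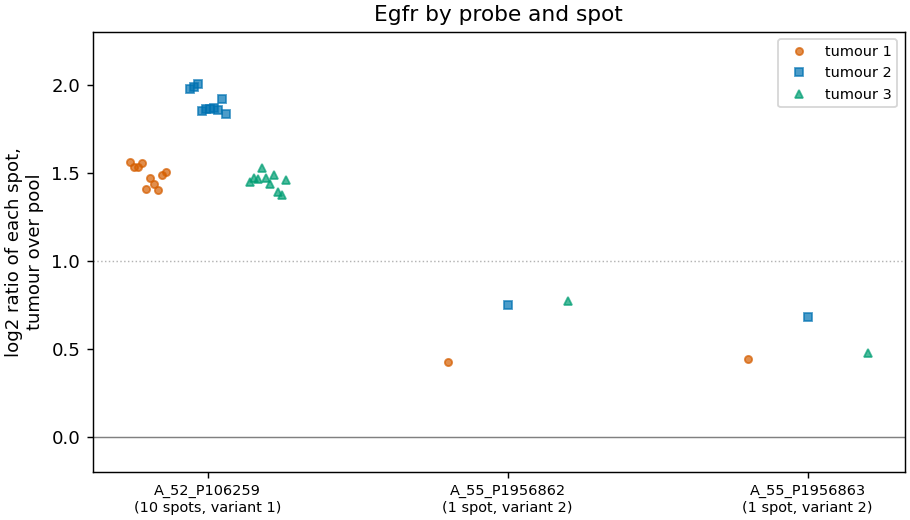
Log2 ratio of tumour over pool at each spot of the 3 Egfr probes, by tumour. The 10 spots per array of the probe annotated to variant 1 lie between 1.37 and 2.01, above the dotted 2-fold line. The single spots of the probes annotated to variant 2 lie below it.

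Erbb2 encodes the receptor that binds no ligand and is amplified in some human gastric cancers. Its probe, A_52_P49250, lies at chr11:98298103-98298162 (mm9) and was spotted 10 times per array. The signals were 9.76, 8.63 and 8.94 in tumours 1, 2 and 3, against 9.07, 9.04 and 9.004 for the pool. Tumour 1 lay above the pool, and the other two lay below it. The ratios were 0.69, -0.41 and -0.06, with spot SDs of 0.061, 0.033 and 0.068 on the same arrays. The mean of 0.07 ± 0.56 (SD, n = 3) did not pass the test (adjusted p = 0.819), and the SD between tumours was larger than that of 91.0% of all genes. Its sign turned without tumour 1, at -0.24, and it was called with median centring (1.14, adjusted p = 0.00584).

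Most genes lying near Erbb2 also had their highest ratio in tumour 1. Within 400 kb of its probe, a window chosen after the values were seen, 28 other genes were tested, and 22 of them had their highest ratio in tumour 1, where 36.4% of all genes did. Their median ratio was 0.33 in tumour 1, -0.16 in tumour 2 and -0.26 in tumour 3. Grb7, an adaptor that binds ErbB2 and whose probe lies 18.5 kb away, had ratios of 1.79, 0.36 and 0.98. Mien1, at 1.19 kb, had 0.27, -1.75 and -1.71, and Pgap3, at -48.1 kb, had 0.72, -0.999 and -0.37. Such neighbours are not independent of one another, no test was made, and DNA was not measured. For the other members, the neighbours highest in the same tumour as the member were also counted. They numbered 3 of 6 for Egfr, 4 of 42 for Erbb3, 2 of 10 for Areg, 6 of 10 for Ereg and 9 of 23 for Hbegf. For Tgfa they were 9 of 16, for Btc 2 of 4, for Egf 5 of 9 and for Nrg1 0 of 1. Of all genes, 30.4% were highest in tumour 2 and 33.1% in tumour 3. A skew to tumour 1 was not particular to Erbb2. Most neighbours of Erbb3 and of Areg were also highest in tumour 1, although neither member was. The Erbb3 neighbours had medians of 0.05, 0.02 and -0.006 in tumours 1, 2 and 3. Those of Areg had larger medians, at 2.87, 1.02 and 0.91, and those of Ereg had 2.06, 1.02 and 0.71. The Areg and Ereg sets share most of their genes, with Cxcl5, Ppbp, Pf4, Cxcl3, Cxcl1 and Cxcl2 in both.

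**Figure D3:**
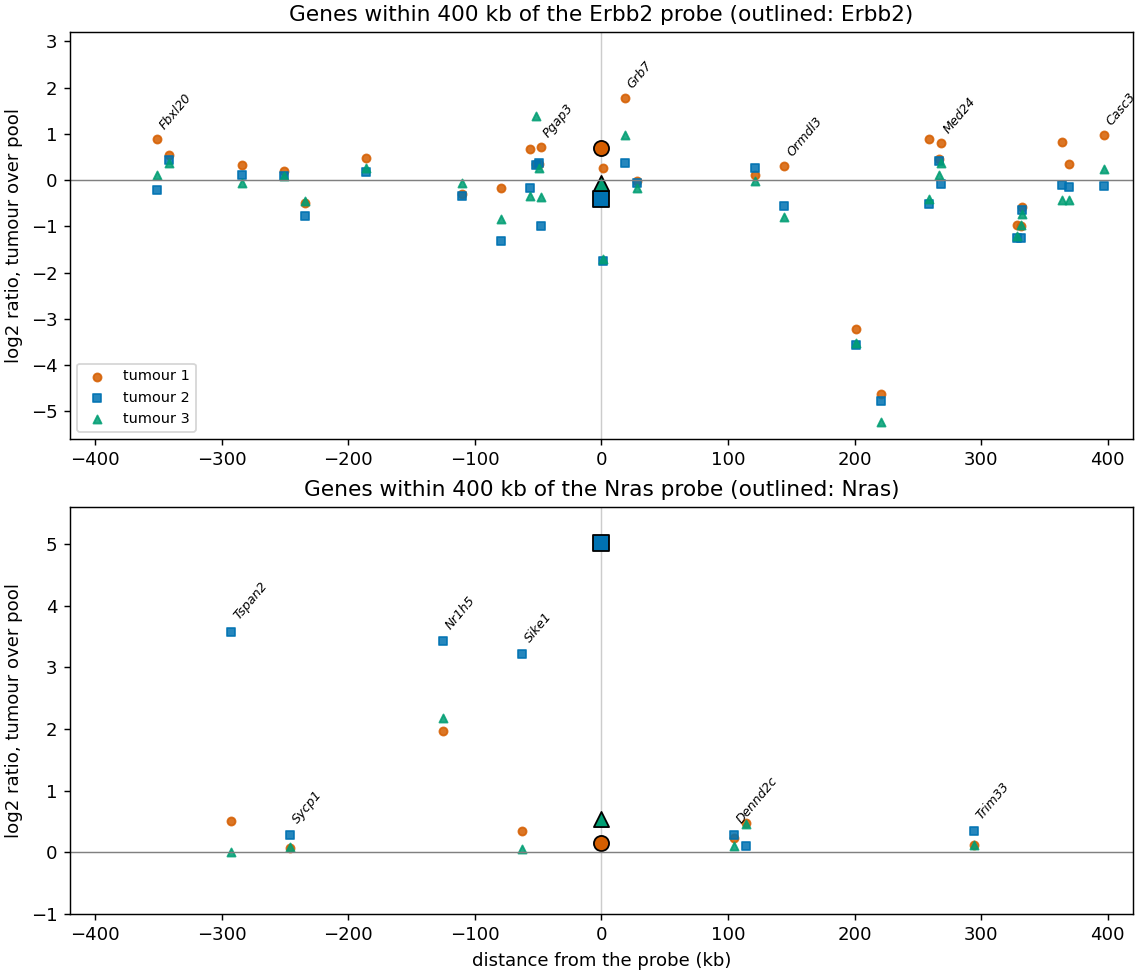
Log2 ratio of tumour over pool in each tumour for genes within 400 kb of the Erbb2 probe (upper panel) and of the Nras probe (lower panel), against the distance between probes in kb. In 22 of 28 genes around Erbb2 the tumour 1 point is the highest, and 3 genes on 1 side of Nras stand at 3.22 to 3.58 in tumour 2; genes closer than 10 kb are not drawn around Nras.

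Erbb3 encodes the receptor for neuregulins that signals through PI3 kinase. Its signals were low, at 6.64, 6.57 and 6.79 in tumours 1, 2 and 3, against 6.89, 6.86 and 6.99 for the pool (probe A_55_P2119897, chr10:128006424-128006483, minus strand). All tumours were slightly below the pool of the same array. The ratios of -0.25, -0.29 and -0.20 averaged -0.25 ± 0.04 (SD, n = 3), an SD larger than that of only 4.50% of genes, and the difference was not called (adjusted p = 0.0765). Its sign turned with median centring (0.056), a scaling that moved the median of all genes to 0.76.

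Among the ligands, Hbegf, Ereg and Egf were called, and the others were not. The first 30 bases of 4 ligand probes are shown, those of Ereg and Egf because the genes were called and those of Areg and Nrg1 because they differed most between tumours among the rest.
Ereg A_55_P2096947: gatagtcatgtaccttgacatagtgaagga
Areg A_52_P482897: ctcagaggagtatgataatgaaccacaaat
Egf A_52_P38627: ataaatgatgtgatctacatagaagtctta
Nrg1 A_55_P1985433: gaagaattacaggccaggctgtctagtgta
In mm9 these probes lie at chr5:91522553-91522612 and chr5:91570090-91570149 on the plus strand for Ereg and Areg, and at chr3:129380826-129380885 and chr8:32928500-32928559 on the minus strand for Egf and Nrg1. The Areg and Ereg probes lie 47.5 kb apart, and that of Btc lies 217 kb beyond Areg on the same chromosome.

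Hbegf encodes heparin-binding EGF-like growth factor, which is released by wounded epithelium and by macrophages. It was read by probe A_51_P181565 at chr18:36664738-36664797 (mm9, minus strand). The signals were 10.83, 10.85 and 11.12 in tumours 1, 2 and 3, against 9.12, 9.08 and 9.21 for the pool. Each tumour lay above all readings of the pool, which is 1 RNA sample, and the tumours lay close together. The probe had 1 spot per array. The ratios were 1.71, 1.78 and 1.90, a mean of 1.80 ± 0.10 (SD, n = 3), or 3.47-fold (adjusted p = 0.000848). The call held in each of 14 alternatives, with ratios between 1.74 and 2.95, the highest coming with median centring.

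Ereg encodes epiregulin, a ligand induced during epithelial repair. The signals were 10.37, 8.57 and 7.59 in tumours 1, 2 and 3, against 6.82, 6.71 and 6.51 for the pool, where the probe was not well above background on any array. Every tumour was above the pool, and tumour 1 stood far above the other two. The ratios were 3.55, 1.87 and 1.08, a mean of 2.17 ± 1.26 (SD, n = 3; adjusted p = 0.0258). As a mean over the arrays Ereg was 4.49-fold higher. The pool's readings lay above the lowest signals well above background, so the detection limit set no separate bound and this is the fitted fold. Its size rests on a dim pool signal and is open to dye bias. The SD was larger than that of 98.9% of genes. Without tumour 1 the ratio was 1.47, and without tumour 2 the call was lost at 2.32 (adjusted p = 0.0738). It stood at 2.90 with median centring, at 3.66 with a background offset of 0, and at 4.44 when Agilent's processed signals were used. Before normalisation its mean spot signals were 1828, 678 and 242 in tumours 1, 2 and 3, against 43.5, 46.2 and 40.1 for the pool, with local backgrounds of 38.5, 32.5 and 26.0 in red and 23.0, 24.0 and 22.0 in green.

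Areg encodes amphiregulin, a low-affinity ligand of EGFR. Its signals were 9.29, 11.42 and 9.94 in tumours 1, 2 and 3, against 9.84, 9.86 and 9.77 for the pool. Tumour 2 was well above the pool, tumour 3 near it and tumour 1 below it. The ratios of -0.55, 1.55 and 0.17 gave a mean of 0.39 ± 1.07 (SD, n = 3) that did not pass the test (adjusted p = 0.480). Without tumour 2 the ratio was -0.19. It was called only with median centring (1.54, adjusted p = 0.0379). Tumour 2 had the highest Areg and tumour 1 the highest Ereg, although the genes are neighbours.

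Nrg1 encodes neuregulin 1, which mesenchymal and neural cells supply to ErbB3 and ErbB4. The signals were 8.96, 9.80 and 7.38 in tumours 1, 2 and 3, against 8.07, 8.16 and 7.93 for the pool. Tumours 1 and 2 were above the pool, and tumour 3 was below it. The ratios of 0.89, 1.64 and -0.55 averaged 0.66 ± 1.11 (SD, n = 3; adjusted p = 0.269), with an SD larger than that of 98.3% of genes. Nrg1 was called without tumour 3 (1.26, adjusted p = 0.0425) and with median centring (1.60, adjusted p = 0.0377), and stood at 0.17 without tumour 2 (adjusted p = 0.763).

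Egf encodes the founding ligand of the family and is the member that was lower. The signals were 5.94, 5.73 and 5.99 in tumours 1, 2 and 3, against 7.90, 7.85 and 8.01 for the pool. All tumours lay below the pool, close to the lowest signal well above background. The ratios were -1.97, -2.12 and -2.02, a mean of -2.04 ± 0.08 (SD, n = 3), or 4.10-fold lower (adjusted p = 0.000630). Of its 10 spots per array, 3, 5 and 8 were well above background in tumours 1, 2 and 3 and all 10 in the pool, and by the rule that 5 of 10 spots suffice the probe was detected in 2 of 3 tumours. In the authors' deposited table Egf had log2 ratios of -4.70, -5.08 and -4.42 on the same arrays. Its mean was -3.66 with a background offset of 0 and -4.90 when Agilent's processed signals were used, so the size of the difference depends on how dim tumour signals are treated. Before normalisation the mean spot signals were 50.5, 54.3 and 62.7 in tumours, over local backgrounds of 32.3, 32.6 and 30.9, against 152, 154 and 161 for the pool, over backgrounds of 23.8, 24.7 and 24.8.

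Tgfa, which encodes TGF-alpha, had signals near the detection limit, at 6.22, 6.61 and 6.23 in tumours 1, 2 and 3, against 6.41, 6.58 and 6.42 for the pool, where it was well above background on 2 of 3 arrays. The mean ratio was -0.12 ± 0.13 (SD, n = 3; adjusted p = 0.372), and it was called lower only with spike-in centring (-1.004, adjusted p = 0.00753). Its ratios were -0.19, 0.03 and -0.19, at probe A_51_P415126 (chr6:86224838-86224897, mm9). Btc, the gene of betacellulin, had signals of 7.09, 7.88 and 7.57 in tumours, against 7.10, 7.32 and 7.31 for the pool. Tumour 1 was level with the pool and tumours 2 and 3 were above it, at probe A_52_P672689 (chr5:91786948-91787007, mm9, minus strand). The mean ratio of Btc was 0.27 ± 0.28 (SD, n = 3; adjusted p = 0.169), or 0.94 with median centring, without a call.

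**Figure D4:**
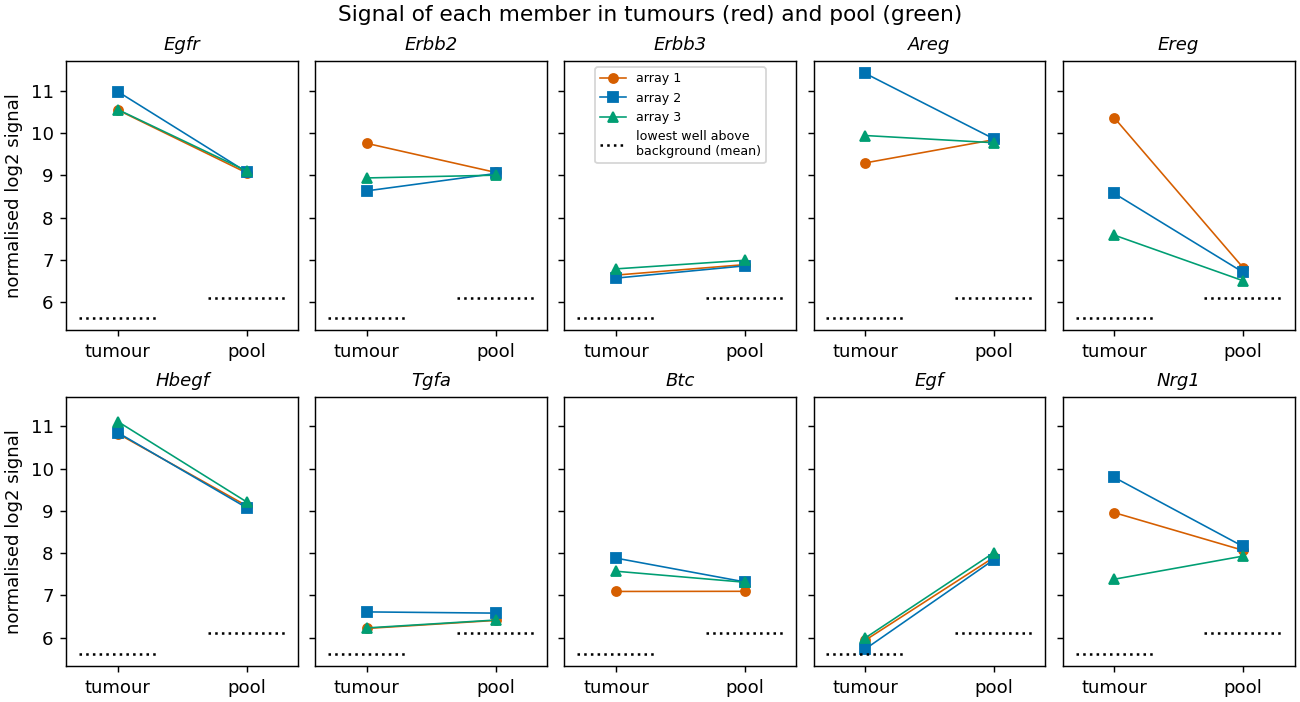
Normalised log2 signal of each member in the tumour (left) and in the pool (right) of each array, with lines joining the channels of 1 array. Dotted lines mark the mean of the lowest signals well above background (5.62 in red, 6.10 in green); pool readings repeat closely between arrays, and tumour readings of Ereg, Areg and Nrg1 do not.

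The pool readings are of 1 RNA sample, so their spread is technical only, whereas the tumour readings come from 3 tumours. Over the members' representing probes, the SD of the 3 tumour readings was between 0.11 and 1.41 log2 units, and that of the 3 pool readings between 0.02 and 0.16. For 6 of the 10 members the SD of the ratio exceeded the median SD of all genes (0.19). Tumour 1 had the highest ratio for Erbb2, Ereg and Egf, tumour 2 for Egfr, Areg, Tgfa, Btc and Nrg1, and tumour 3 for Erbb3 and Hbegf.

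Promoter sequence of the RefSeq table (GRCm38.p6) was searched for 6 members, and 2 are printed. They are that of Egfr, which was called, and that of Areg, which differed most between tumours among those 6. Each run holds the 250 bases before the annotated start, 5′ to 3′ on the plus strand, with matches to the searched motifs in capitals.
Egfr chr11:16751953-16752202: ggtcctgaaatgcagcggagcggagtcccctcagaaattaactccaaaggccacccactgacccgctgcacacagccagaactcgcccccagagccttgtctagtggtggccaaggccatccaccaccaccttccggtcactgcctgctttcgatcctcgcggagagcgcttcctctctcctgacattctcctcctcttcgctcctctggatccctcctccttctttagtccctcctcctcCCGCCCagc
Areg chr5:91139349-91139598: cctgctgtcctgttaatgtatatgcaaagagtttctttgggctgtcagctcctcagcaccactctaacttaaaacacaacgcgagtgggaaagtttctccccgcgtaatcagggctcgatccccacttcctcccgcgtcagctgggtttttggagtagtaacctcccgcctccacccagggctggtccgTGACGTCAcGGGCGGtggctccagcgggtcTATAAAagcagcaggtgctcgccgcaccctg
The motifs searched, on both strands, were the AP-1 site (TGACTCA or TGAGTCA), the cyclic AMP response element, CRE (TGACGTCA), the GC box (GGGCGG or CCGCCC), the TATA box (TATAAA or TTTATA) and the CCAAT box (CCAAT or ATTGG). The Areg window held a CRE at -61, a GC box at -52 and a TATA box at -31 from the start, and the Egfr window held a GC box at -9 and none of the others. Among 32851 promoters of the same length, 1.55% held a CRE, 32.7% a GC box, 12.4% a TATA box, 33.8% a CCAAT box and 4.46% an AP-1 site. A CCAAT box at -41 was found for Erbb2 and GC boxes at -126 and -15 for Tgfa, and no match for Btc or for either annotated start of Egf. A match describes the letters of the window and was not a measurement of binding.

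The rest of the pathway was described from lists of 94 further genes, of which 89 were tested. Of these, 17 were called higher, 6 lower and 66 not, with a median ratio of 0.14. Over all genes 9.33% were called higher and 9.68% lower, and no list was tested against these shares. The receptor gene Erbb4 and the ligand genes Epgn, Nrg2 and Nrg3 did not pass the filter on dim probes. Nrg4, a ligand of ErbB4, was tested but was not well above background in the pool, and had 0.62, -0.11 and -0.07 (mean 0.15 ± 0.41, SD, n = 3; adjusted p = 0.538). With Agilent's processed signals it was called (1.32, adjusted p = 0.0164).

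Genes of the proteases that release ErbB ligands, and of the proteins that carry those proteases, had 4 of 9 called higher. The others were not called, and the median was 0.77. Over all genes 9.33% were called higher, and the list was not tested. Adam8, a metalloprotease also expressed by myeloid cells, had ratios of 4.70, 3.12 and 3.23, a mean of 3.68 ± 0.88 (SD, n = 3; adjusted p = 0.00281). Adam19, which can cleave neuregulin, had 2.09, 1.79 and 0.83 (mean 1.57 ± 0.66, adjusted p = 0.0119), and lost its call without tumour 2 (adjusted p = 0.0538). Rhbdf1, which encodes the iRhom that carries ADAM17 to the cell surface, had 1.10, 1.51 and 1.31 (mean 1.31 ± 0.21, adjusted p = 0.00240). The remaining called gene, Bace1, named after its values were seen, had a mean of 1.10. Adam17, the main protease for TGF-alpha, amphiregulin and HB-EGF, had -0.06 ± 0.15 (adjusted p = 0.674), and Adam10, that for EGF and betacellulin, had -0.14 ± 0.22 (adjusted p = 0.398), both also named after their values were seen.

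Of 15 genes of receptor inhibition and degradation, 13 were not called, 1 was called higher and 1 lower, with a median of 0.18. Each of these shares was below that of all genes (9.33% higher, 9.68% lower). Errfi1, which encodes the feedback inhibitor MIG6 that binds ErbB kinases, had 0.95, 2.19 and 0.99, a mean of 1.38 ± 0.71 (SD, n = 3; adjusted p = 0.0201). It was highest in tumour 2, as was Areg, and lost its call without tumour 2 (0.97) and without tumour 3 (adjusted p = 0.0621). Lrig1, which encodes a membrane protein that promotes ErbB degradation and marks epithelial stem cells, had -1.04, -1.36 and -1.26 (mean -1.22 ± 0.16, adjusted p = 0.00223), or -0.07 with median centring and -0.92 with spike-in centring, without a call.

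Adaptor genes had 2 of 16 called higher and the others not called, with a median of 0.11. The share called higher was near that of all genes (9.33%). Eps8, an EGFR substrate that regulates actin, averaged 1.14 ± 0.22 (SD, n = 3; adjusted p = 0.00360), or 0.82 without a call with the median of its probes. Grb7, given above beside Erbb2, averaged 1.04 ± 0.71 (adjusted p = 0.0424), was 0.67 without tumour 1 and lost its call there, without tumour 3 (1.07, adjusted p = 0.144) and when dim probes were not filtered out (adjusted p = 0.0722).

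The cascades below the receptors held genes called in both directions. In the Ras to ERK list 1 of 14 was called higher, 1 lower, with a median of -0.22. Each of these shares was below that of all genes (9.33% higher, 9.68% lower). Rras, a small GTPase, had 1.20, 1.54 and 1.05 (mean 1.27 ± 0.25, SD, n = 3; adjusted p = 0.00322). Nras, another small GTPase gene, named after its values were seen, had 0.14, 5.02 and 0.54 and was not called (adjusted p = 0.199). In the PI3 kinase, Akt and Stat list 2 of 15 were called higher and 4 lower, with a median of -0.21. Both shares stood above those of all genes, and the list was not tested. The PI3 kinase subunit gene Pik3cd, expressed mainly in leukocytes, averaged 1.47 ± 0.45 (adjusted p = 0.00627), and the kinase gene Mtor averaged -1.24 ± 0.16 (adjusted p = 0.00212). With probes of a gene summarised by their median, Pik3cd (0.84) was not called, and with median centring Mtor (-0.64) was not.

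Genes that ERK signalling is known to induce had 7 of 19 called higher and the others not called, with a median of 0.79. Over all genes 9.33% were called higher, and the list was not tested. The 12 not called had mean ratios from -0.89 (Phlda1) to 1.20 (Ccnd1), both named after their values were seen. Plaur, which encodes the urokinase receptor, had ratios of 2.16, 2.48 and 2.08, a mean of 2.24 ± 0.21 (SD, n = 3; adjusted p = 0.000856). Etv4, a transcription factor gene of the PEA3 group, had 1.34, 1.95 and 2.03 (mean 1.77 ± 0.38, adjusted p = 0.00285), and the membrane protein gene Emp1 had 1.10, 2.23 and 1.75 (mean 1.69 ± 0.57, adjusted p = 0.00709). Macrophages and neutrophils, whose markers were higher in the tumours, also express Plaur, and the part of these cells in its ratio was not tested.

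**Figure D5:**
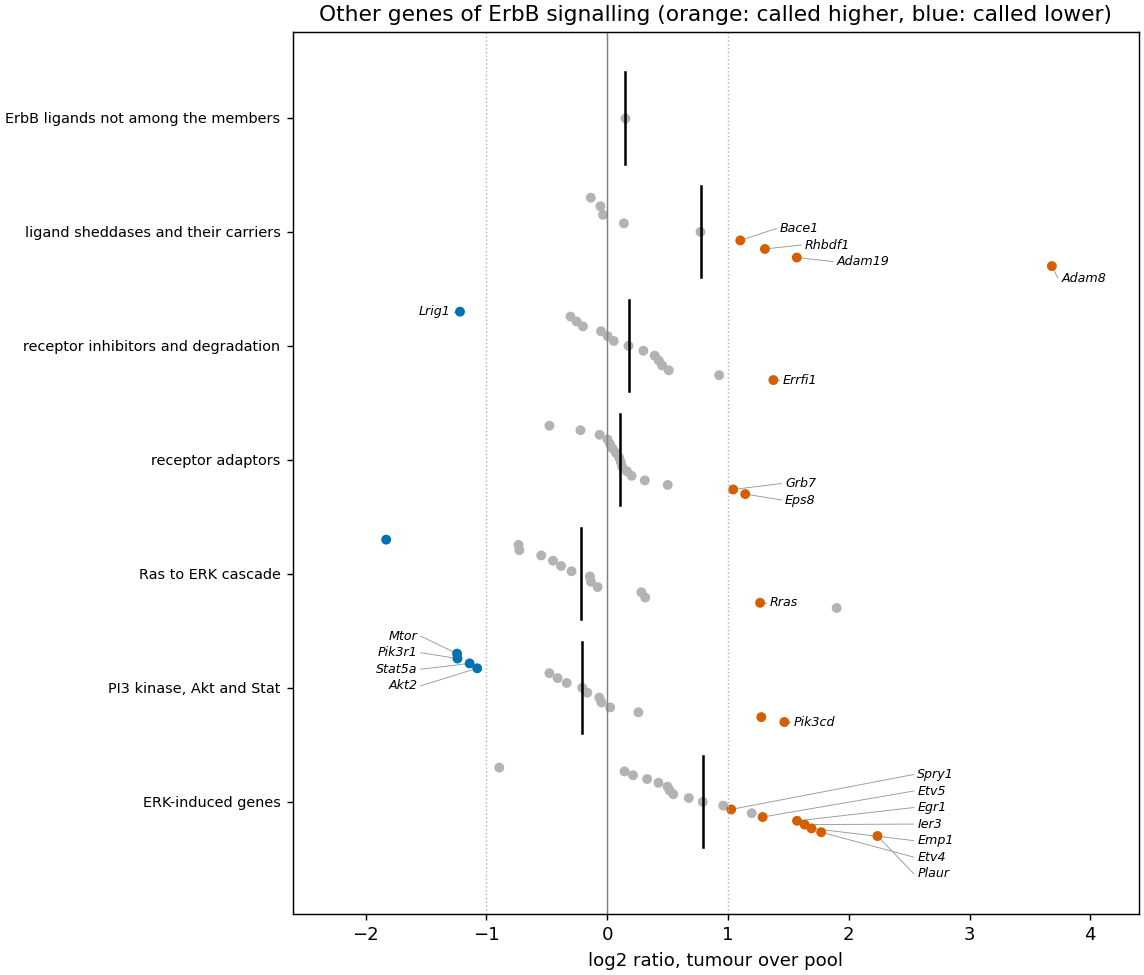
Log2 ratio of tumour over pool for 89 further genes of ErbB signalling, by list, with 1 point per gene as the mean of 3 tumours and a bar at each list's median. The 17 genes called higher are orange and the 6 called lower are blue; names beyond 3 per list were added after their values were seen, and some called genes are not named.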

How the data were processed

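Per the labels, RNA of 3 tumours (250 ng of total RNA, RNA integrity number above 7) was labelled with Cy5 and RNA of the pool with Cy3. The scanner files hold spot intensity values, deposited by the authors as mean signals and median local backgrounds from Agilent Feature Extraction, whose version is 10.7.3.1 per the file headers and 9.5.3 per the submitters' processing notes. Feature Extraction's processed intensity signals and their log10 ratio of red over green are also given, per the file headers. The values in the authors' deposited table are log2 ratios, tumour over pool: 99.8% of filled values or more lay within 0.01 of the scanner ratio on the log2 scale, and 48.3 to 49.6% of probes, Ereg's among them, are blank without a stated reason. Medians of its columns were -0.15, -0.13 and -0.11. The 3 arrays were on 1 slide and scanned in 1 session.

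The normexp method with an offset of 50 was used to correct the background, which pulls ratios of dim probes towards 0, and arrays were loess-normalised within themselves with limma 3.58.1 in R 4.3.3, and Aquantile gave the signals per channel. Control spots and the 157 to 190 gene spots with outlier flags per array were left out, spots of a probe averaged, and probes kept if well above background in all tumours or on all arrays in the pool (24164 of 39429 probes). Of the probes, 26055 were named through their accession, and all 12 member probes were. The brightest kept probe stood for its gene. Ratios were tested against 0 with limma's lmFit and eBayes (two-sided, Benjamini-Hochberg over 19434 genes, prior degrees of freedom 2.45), which leaves out the pool's own spread and any dye effect. The code was tested on simulated data. All members are named, and of each pathway list up to 3 called genes with the largest absolute ratio, or its brightest kept gene where none was called, and Cdh1, Trp53 and Atp4b. Some genes that this rule selects are not reported here. Members and lists were chosen with earlier results of these data known. Alternatives covered background correction, signal, scaling, the filter on dim probes, the representing probe, the fold criterion, flagged spots and each replicate.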

Additional observations from a re-analysis of the deposited data

How the results depend on the processing

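No paired analysis was possible because there is 1 group of tumours, each set against the same pool. With the median of all gene spots at 0 and no loess, which changes both together, the median of all genes was 0.76 (0.05 with loess), 93.3% of called genes were higher (49.1% with loess), and 6 members were called higher, Erbb2 (1.14), Areg (1.54) and Nrg1 (1.60) joining the 3. Centring alone (loess, then the median of tested genes at 0) gave 1700 genes higher and 1990 lower, and 3 members higher and 1 lower. Members called lower numbered 2 with spike-in centring and 0 with probes well above background in both channels, where Egf, Ereg and Tgfa were not tested. Genes called higher numbered 3183 with an offset of 0, 3729 with Agilent's processed signals, 7747 with median centring, 2795 with spike-in centring and 4765 with no fold criterion, against 1814. Genes called lower numbered 3081 with processed signals, 556 with median centring and 4443 with no fold criterion, against 1882. Leaving out 1 tumour gave 1659 to 1686 genes higher and 1777 to 1921 lower, 2 to 4 members higher and 1 lower. Signs turned for Erbb2 (-0.033 with processed signals, -0.029 with the authors' values, -0.24 to 0.31 when 1 replicate was left out), Erbb3 (0.056 with median centring), Areg (-0.19 to 0.86 when 1 replicate was left out) and Nrg4 (-0.76 with spike-in centring, -0.092 to 0.27 when 1 replicate was left out); the cause was not tested. Hbegf kept its call in 14 of 14 alternatives, Egf in all 13 that tested it, Egfr in 13 of 14 and Ereg in 11 of 12. With 3 tumours and 1 pool, differences within the spread of Areg, Nrg1 and Erbb2 were not detectable, and the dim Egf, Tgfa and Ereg signals limit the size of their ratios.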

Other observations

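Nras, a small GTPase gene of the Ras to ERK list that was not called (adjusted p = 0.199), stood far apart in 1 tumour and is named here after its values were seen. Its representing probe, A_52_P649296 (chr3:102868451-102868510, mm9), had log2 ratios of 0.14, 5.02 and 0.54 in tumours 1, 2 and 3, with signals of 9.33, 14.41 and 9.75 in the tumours against 9.18, 9.40 and 9.21 for the pool. The other probes of the gene were also highest in tumour 2, with 4.76 and 3.57 there and between 0.14 and 0.50 in the others. Within 400 kb, 7 of 8 neighbouring genes tested had their highest ratio in tumour 2, where 30.4% of all genes did, and the medians of the neighbours were 0.28, 1.58 and 0.10 in tumours 1, 2 and 3. On the side of lower coordinates, Sike1, at -62.5 kb, had 0.34, 3.22 and 0.04 and Tspan2, at -292 kb, had 0.50, 3.58 and 0.01. Nr1h5, at -125 kb, was high in all 3 tumours (1.97, 3.43 and 2.17), and Sycp1, at -246 kb on the same side, stood near the pool in all 3 (0.07, 0.27 and 0.09). On the other side, Dennd2c at 105 kb (0.27 in tumour 2), Bcas2 at 114 kb (0.10) and Trim33 at 294 kb (0.34) stood near the pool. Tumour 2 also had the highest ratios of Areg, Nrg1 and Errfi1 given above, as it had for 30.4% of all genes. Of the called ERK-induced genes, Plaur and Emp1 were highest in tumour 2 and the others in tumour 1 or tumour 3. Among those not called, Fos, Fosl1, Ccnd1, Phlda1, Dusp4, Dusp5, Spry2, Spred2 and Mcl1 were also highest in tumour 2. Myc and Spred1 were highest in tumour 3 and Dusp6 in tumour 1. These genes were named after their values were seen, and the list was not tested against the share of all genes. No test was made of this pattern, which rests on 1 tumour, and DNA was not measured.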
